A study of Coprinopsis cinerea AmutBmut pab1-1 with 201 samples.

Results

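A set of 196 genes of the inky cap mushroom Coprinopsis cinerea was higher both when mycelium was placed in sorbitol and when it was frozen, out of 13617 genes counted. The genes were chosen on CPM, the count of a gene scaled by the total count of its library, with 0.5 CPM added to each group mean. Sorbitol had to be at least 2 times its liquid control and frozen mycelium at least 2 times its dark control, with every treated library above every control library. The mean in sorbitol had to reach 10 CPM, and basidiospores at 0 h had to stay under 4 times the sorbitol level. Sorbitol ratios of 2 or more were found for 1182 genes and freezing ratios of 2 or more for 892. With the conditions on libraries and level, 221 genes met both sides, and the limit on basidiospores removed 25 of them.

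All libraries came from 1 strain, AmutBmut pab1-1, which carries mutations in both mating type factors and fruits without a partner. RNA was measured in 67 groups of 3 libraries with QuantSeq, a method that reads the 3′ end of polyadenylated transcripts. In the sorbitol group (Sor) mycelium was kept for 2 h in 10% sorbitol, and its control (LoKoLiquide) served all treatments in liquid, which were 1 mM H2O2, acidic (pH_4) and alkaline (pH_9) medium and 1% congo red (CR), each for 3 h. The frozen group (min20) was mycelium 6 days old kept at -20 °C for 30 min, and its control was mycelium grown in the dark for 132 h (DM_132h), which the labels also give as control for heat shock at 47 °C for 2 h (HS47), for plates sealed for 6 days (CO2) and for sclerotia grown for 4 weeks (Sclero).

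Further treatments had controls of their own. Drought (DR), 4 °C for 4 h (Cold) and cutting with a knife 3 h before sampling (Scratchy) were set against dark mycelium of 84 h (DM_84h), and transfer to water agar for 2 to 24 h (SWAT2h to SWAT24h) against dark mycelium of 60 h (DM_60h). Calcium at 200 mM for 24 h (Calci), copper sulphate at 2 mM for 6 h (Cu) and the antifungal voriconazole at 0.5 µg/ml for 48 h (Vor) shared the control LoKo. Cobalt chloride at 2 mM on cultures 7 days old (Cocl, 2 h of light and 22 h of darkness) had the control CoK. Hypoxia bags for 24 h (Hyp) had the control HypK. Mycelium was also grown with Trichoderma, either overgrown for 60 h (CTGT) or just meeting it (CTMP). Their labelled controls were dark mycelium of 108 h and of 60 h. Both count among the 67 groups, and neither was used in a comparison. Development was covered by oidia (asexual spores) at 0 and 18 h of germination, basidiospores (sexual spores) from 0 to 12 h, dark mycelium from 12 to 156 h, aerial (AE) and attached (AM) mycelium during and after light induction, hyphal knots (HK, the earliest aggregates of a fruiting body) and primordia. The labels do not say whether the replicates are separate cultures, and p-values then describe the spread between these libraries, which may be technical.

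Sorbitol is a sugar alcohol that lowers the water activity of a medium, so that water leaves the hyphae. Freezing also withdraws water, since growing ice leaves the solutes behind in a shrinking volume of liquid. In budding yeast the loss of water is answered through the HOG kinase pathway and by compatible solutes such as glycerol and trehalose, and fungal spores and sclerotia are resting stages that survive drying. None of this was measured here, and the gene IDs, which are given as in the deposited table, come without names, so no role is stated for any of these genes.

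Library totals ran from 213736 to 26101402 counts with a median of 9984538. The 12 libraries of the sorbitol, freezing and control groups held between 9069076 and 16884845 counts. No gene names came with the counts, so the labelled stages could not be checked against markers. The lowest totals belonged to the overgrowth with Trichoderma (CTGT) and the first cold library had 1673596 counts.

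Together the 196 genes took a large part of the RNA in sorbitol. Their share of all counts was 9.45, 7.05 and 13.3% in the 3 sorbitol libraries and 1.62, 2.39 and 1.86% in the liquid control. In frozen mycelium it was 3.87, 4.69 and 5.098%, and in dark mycelium of 132 h 1.05, 0.726 and 1.39%. These contrasts chose the genes, so the values are a description: 195 of the 196 were called higher in sorbitol and 188 in frozen mycelium, where 10.7% and 8.81% of all tested genes were called. Lower calls made up 7.07% and 7.23% of all tested genes. A gene is called throughout when its fold was at least 2 with an adjusted p below 0.05.

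The median ratio was 5.57 in sorbitol and 3.78 in freezing. Sorbitol gave the larger ratio for 119 genes and freezing for 77, and ratios of 10 or more were reached by 56 genes in sorbitol and by 42 in freezing. Just inside the sorbitol fold lay CopciAB_499229.T0, with ratios of 2.02 in sorbitol and 3.42 in freezing, and just inside the freezing fold CopciAB_445822.T0, with 2.18 in sorbitol and 2.003 in freezing. The nearest genes outside had sorbitol ratios of 1.98, with freezing ratios of 2.08 for CopciAB_85038.T0, 2.38 for CopciAB_538093.T0 and 2.26 for CopciAB_508178.T0. In sorbitol 100 of the 196 genes had a mean of 100 CPM or more and 23 a mean of 1000 CPM or more, and in frozen mycelium 63 and 4 genes reached these levels.

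**Figure D1:**
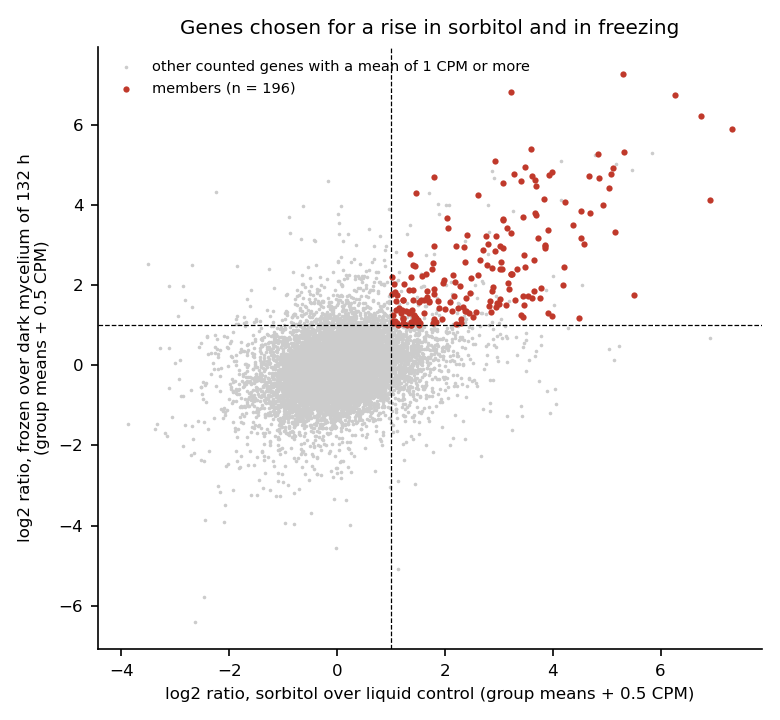
Log2 ratio of sorbitol to its liquid control (horizontal) and of frozen to dark mycelium of 132 h (vertical), from group means of 3 libraries plus 0.5 CPM, with dashed lines at a fold of 2. Red points are the 196 genes chosen and grey points other counted genes with a mean of 1 CPM or more; grey points in the upper right region failed a condition on libraries, level or basidiospores.

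The genes with the largest product of both ratios were low in both controls and far higher in both treatments. CopciAB_455254.T0 (scaffold 8, 852426 to 853450) had 1.004, 1.76 and 2.05 CPM in the liquid control and 191, 82.7 and 736 CPM in sorbitol, a ratio of means of 160. It had 0.2504, 0.913 and 0.453 CPM in dark mycelium of 132 h and 49.3, 37.3 and 97.1 CPM after freezing. The treated libraries differed among themselves by several fold. That the lowest of them lay above the highest control library was set by the choice of genes. CopciAB_541226.T0 (scaffold 11, 183775 to 184871) had the largest level after freezing of the first 10 genes, with 1899, 1710.3 and 2525 CPM against 17.2, 8.31 and 30.9 CPM. In sorbitol it reached 143, 46.8 and 543 CPM from 1.37, 4.85 and 1.86 CPM, so its 3 sorbitol libraries spread more widely than its 3 frozen ones.

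CopciAB_53386.T0 (scaffold 9, 528603 to 529427) was at 192, 117 and 408 CPM in sorbitol and 141, 137 and 224 CPM after freezing. Its controls held 0.602, 1.54 and 3.02 CPM and 0.668, 0.822 and 3.81 CPM. The ratios of CopciAB_395952.T0 were 121 in sorbitol and 17.5 in freezing, those of CopciAB_438392.T0 34.7 in sorbitol and 30.3 in freezing, and those of CopciAB_502944.T0 33.7 in sorbitol and 26.99 in freezing. CopciAB_438898.T0 started from a higher control level, with 28.98, 104 and 46.1 CPM in the liquid control, and was at 2688, 1476 and 3049 CPM in sorbitol. All 3 sorbitol libraries of that gene stood above 1000 CPM. Its 3 frozen libraries, at 449.9, 412 and 616 CPM, stood far above dark mycelium of 132 h, at 11.2, 5.94 and 18.3 CPM. CopciAB_425585.T0 had a like course, from 64.2, 101 and 56.98 CPM in the liquid control to 1975, 1084 and 3358 CPM in sorbitol.

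Some of the genes leaned to 1 treatment. CopciAB_1001710.T0 had ratios of 9.38 in sorbitol and 112 in freezing: it was nearly silent in dark mycelium of 132 h (0.167, 0 and 0.272 CPM) but already at 39.5, 40.03 and 41.2 CPM in the liquid control. CopciAB_475934.T0, CopciAB_1002426.T0, CopciAB_502782.T0 and CopciAB_439416.T0 also had a freezing ratio several times their sorbitol ratio. At the other end CopciAB_464422.T0 had ratios of 45.2 in sorbitol and 3.35 in freezing, with 50.8, 34.4 and 37.3 CPM in sorbitol and 1.07, 0.731 and 2.03 CPM after freezing. CopciAB_415568.T0, CopciAB_395952.T0, CopciAB_463015.T0 and CopciAB_247679.T0 leaned the same way, with sorbitol ratios from 15.0 to 121 and freezing ratios from 2.28 to 17.5.

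**Figure D2:**
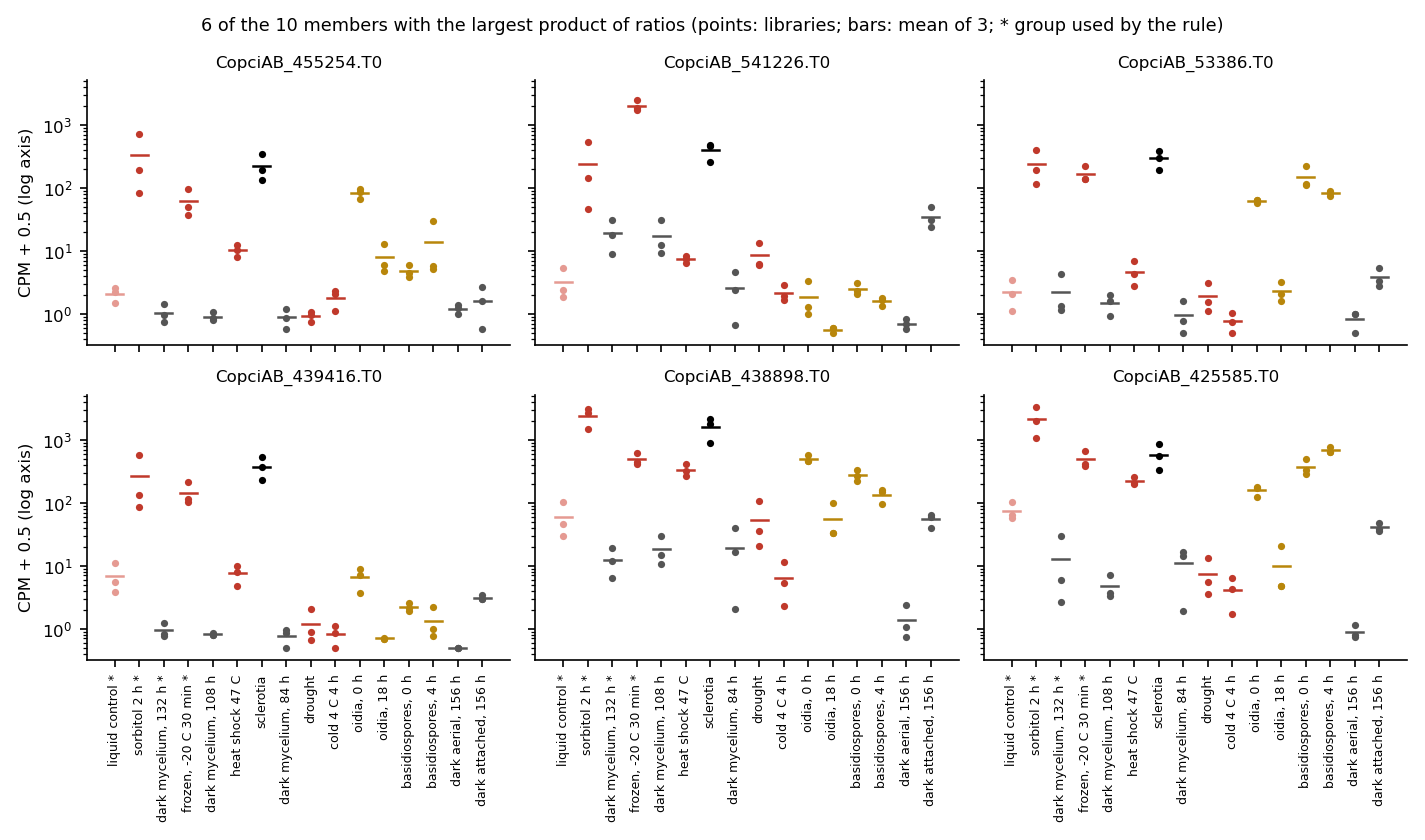
CPM plus 0.5 (logarithmic axis) of 6 of the 10 genes with the largest product of ratios, in selected groups. Points are libraries and bars the mean of 3. In every panel the sorbitol and frozen libraries lie above their controls, as the choice of genes required. The sclerotia lie far above dark mycelium of 108 h in every panel.

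The level of the set differed widely between the 67 groups. The level of the set in a library is given as the median over the 196 genes of log2(CPM + 0.5) minus the gene's mean over all groups. In bulk RNA fewer cells of a type and less RNA per cell cannot be told apart. The frozen group (mean 1.83) was followed by H2O2 (1.81), sclerotia (1.76), congo red (1.51) and basidiospores at 4 h (1.35), while sorbitol stood at 2.83. The lowest groups were a water agar group of the hyphal knot series (a_22_5, -1.34), dark aerial mycelium of 156 h (-1.26), another group of that series (a_30, -1.199) and dark mycelium of 60 h (-1.195). Neighbours in this order mostly did not differ beyond their spread: the 3 libraries gave 1.71, 1.62 and 2.09 in H2O2, 2.10, 1.89 and 1.28 in sclerotia and 1.53, 1.88 and 2.09 after freezing.

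**Figure D3:**
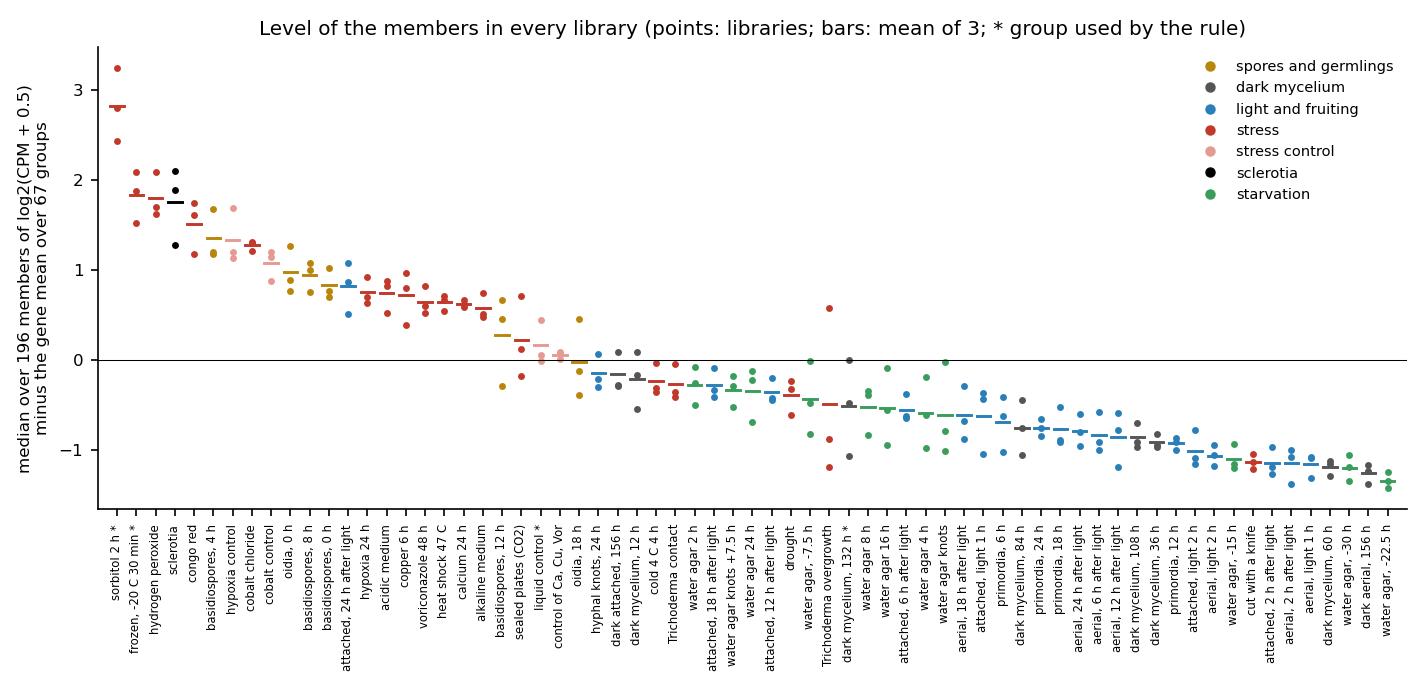
Level of the 196 genes in each of the 201 libraries, as the median over genes of log2(CPM + 0.5) minus the gene mean over 67 groups; points are libraries, bars the mean of 3, and groups are ordered by it. Groups marked with an asterisk chose the genes, and basidiospores at 0 h set a limit; sclerotia and several stress and spore groups stand above 0 and dark, aerial and early water agar mycelium below it.

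Single genes did not all peak in the same place. The highest group mean lay in sorbitol for 49 genes, in frozen mycelium for 6, and in one of the oidium or basidiospore groups for 69. Basidiospores at 0 h gave the highest mean for 27 genes and the lowest for 32, so these spores held both extremes of the set. A mean under 1 CPM was found for 24 genes in basidiospores at 0 h, for 15 in oidia at 0 h and for 12 in both. Dark mycelium of 60 h had 46 genes under 1 CPM and dark aerial mycelium of 156 h had 50. The choice of genes favours high means in sorbitol and frozen mycelium and limits those in basidiospores at 0 h. The like counts over all genes were not made, so none of these counts is read as a trait of the set.

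**Figure D4:**
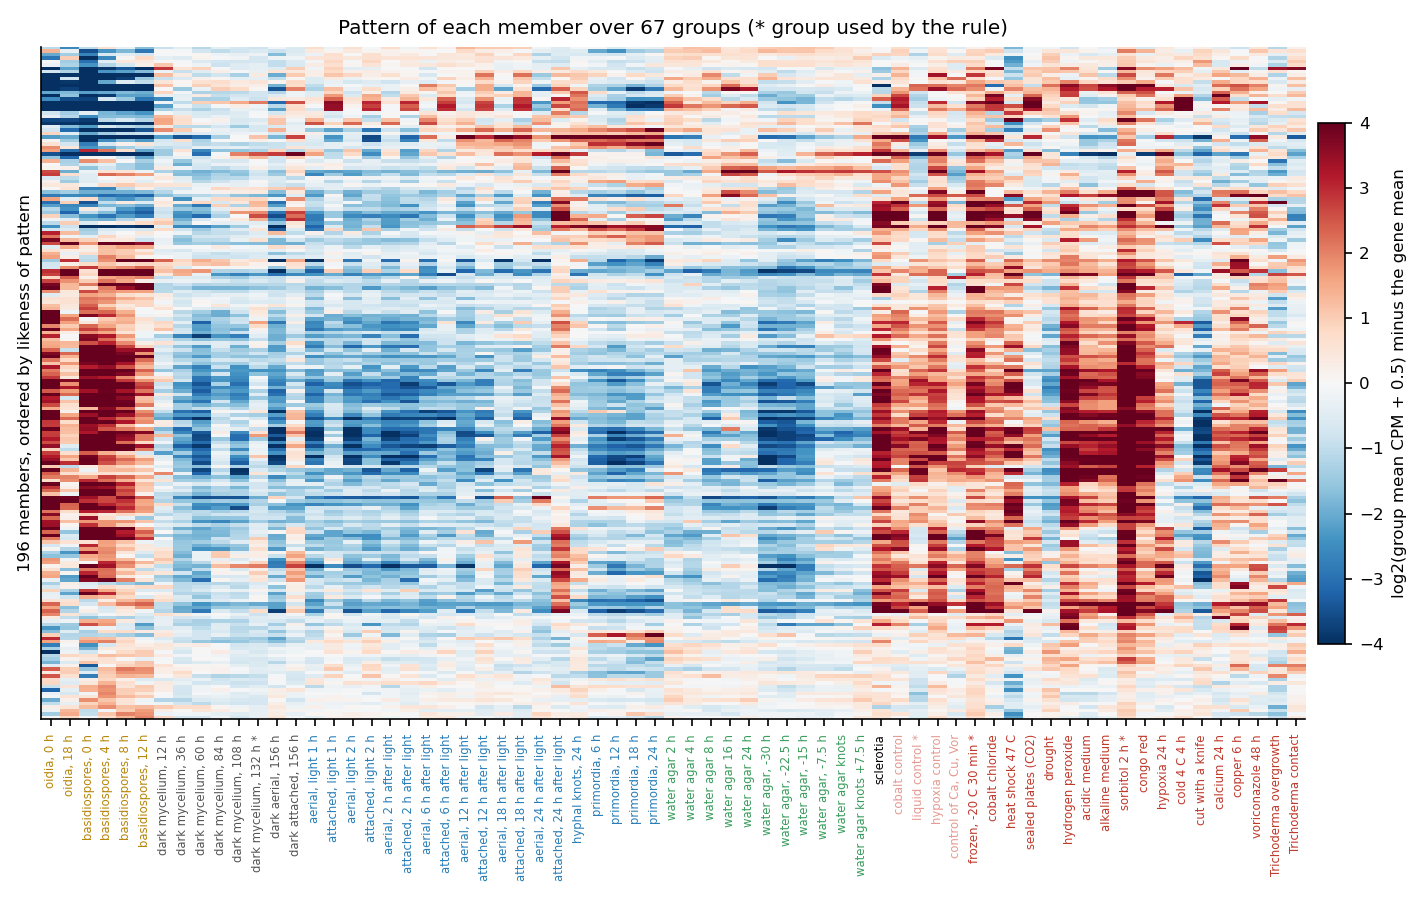
Log2(group mean CPM + 0.5) minus the gene mean for each of the 196 genes (rows, ordered by likeness of pattern) in 67 groups (columns, means of 3 libraries; an asterisk marks groups the choice used). A block of rows is high in basidiospores, sclerotia and most treatments in liquid, and a smaller block at the top is low in most spore groups.

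The 5 genes with the highest mean over all groups differed in where they stood highest. CopciAB_450739.T0 had 20517, 19511 and 19015 CPM in basidiospores at 0 h, and 15826, 16204 and 16752 CPM in attached mycelium 24 h after light. In sorbitol it was at 10339.6, 8168 and 15342 CPM and in the liquid control at 3977, 6248 and 4349 CPM, a ratio near the lower limit of the choice. It had 194, 214 and 108 CPM in dark aerial mycelium, far below all of these. Highest in the study for CopciAB_441209.T0 was cobalt chloride with 4744, 5791 and 5739.7 CPM, and for CopciAB_167773.T0 oidia at 18 h with 7218, 7811 and 7007 CPM. CopciAB_27198.T0 was highest in basidiospores at 0 h with 7129, 6339 and 8963 CPM, and CopciAB_433477.T0 in sorbitol with 4905, 3759 and 7669 CPM.

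For 18 further comparisons no library had been used to choose the genes. Each was fitted with edgeR's quasi-likelihood test over all genes that passed a filter on low counts, with Benjamini-Hochberg adjusted p. Between 180 and 196 of the 196 genes passed that filter, and 165 were tested in every comparison. In each direction of a comparison, the gene named had the smallest adjusted p among genes with all libraries in that direction. That the groups of such a gene lay apart was thus set by the naming. For comparison, 200 genes raised by sorbitol only and 200 raised by freezing only were chosen by the same conditions on 1 treatment. The other treatment had to be close to its control or below it. These lists are not matched to the set in size of response. In sorbitol the median log2 change was 2.56 for the set and 1.67 for the list raised by sorbitol only. In freezing it was 2.07 for the set and 1.43 for the list raised by freezing only. The part of this in differences between the lists was not tested. Heat shock and sclerotia were compared with dark mycelium of 108 h (DM_108h), because their labelled control had chosen the genes, so these groups also differ from their control in age. The dark controls of 60, 84 and 108 h come from the same time course as the 132 h control that chose the genes. The set was also low in them, with levels of -1.195, -0.75 and -0.86. The part of this in the higher calls against these controls was not tested.

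Sclerotia, the hardened resting bodies of the mycelium, held most of the set at a high level. Of 195 genes tested, 162 were higher in sclerotia than in dark mycelium of 108 h and 5 were lower, where 20.9% of all tested genes were higher and 22.3% lower. The median log2 change was 3.10, against -0.05 for all tested genes. Among genes raised by sorbitol only 65 were higher and 40 lower, and among those raised by freezing only 102 were higher and 30 lower, of 200 each. The labels state that slight contamination with mycelium is possible in these samples, and its part in the result was not tested.

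CopciAB_502944.T0 was at 396, 305 and 204 CPM in sclerotia and 0.222, 0.1802 and 0.3303 CPM in dark mycelium of 108 h (log2 change 10.39 ± 0.29 (SE), adjusted p = 1.15e-12). CopciAB_439416.T0 had 528, 373 and 227 CPM against 0.296, 0.3605 and 0.283 CPM (log2 change 10.47 ± 0.40 (SE), adjusted p = 1.39e-11). The control libraries of both genes held only a few counts each, so the sizes of these changes rest on small counts. CopciAB_455254.T0 stood at 349, 194 and 134 CPM in sclerotia and at 0.296, 0.3605 and 0.566 CPM in the mycelium (log2 change 9.25 ± 0.39 (SE), adjusted p = 2.07e-11). The groups did not overlap for any of these genes, which the naming asked of CopciAB_502944.T0. Of the 5 genes lower in sclerotia, CopciAB_468107.T0 had the smallest adjusted p. It had 3.74, 0.473 and 2.6 CPM against 54.97, 63.6 and 42.4 CPM (log2 change -4.30 ± 0.41 (SE), adjusted p = 1.69e-07). The others were CopciAB_440153.T0, CopciAB_441209.T0, CopciAB_1002234.T0 and CopciAB_1000481.T0, named after their values were seen.

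Heat shock at 47 °C, set against the same mycelium of 108 h, raised more of the set than it lowered. Here 128 of 195 genes tested were higher and 19 lower (28.4% and 29.1% of all tested genes), with a median log2 change of 1.82 against -0.06. Of the genes raised by sorbitol only 70 were higher and 62 lower, and of those raised by freezing only 58 and 64. CopciAB_444850.T0 was at 726, 579 and 561 CPM after heat and at 0.815, 0.541 and 0.472 CPM in dark mycelium of 108 h (log2 change 10.39 ± 0.27 (SE), adjusted p = 1.4e-13). The heat-shocked libraries of that gene lay within a narrow range, far above the mycelium. CopciAB_437532.T0 went the other way, with 15.2, 14.2 and 8.25 CPM after heat and 126, 123 and 120.3 CPM in dark mycelium of 108 h (log2 change -2.90 ± 0.22 (SE), adjusted p = 7.35e-09), while its level in sclerotia was 1042, 1336 and 887 CPM.

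Oidia, the asexual spores, held much of the set before germination and less after it. Of 180 genes tested, 94 fell between 0 and 18 h and 30 rose, where 27.4% of all tested genes were lower and 26.6% higher. The median log2 change was -1.15, against 0.02 for all tested genes. Genes raised by sorbitol only counted 45 lower and 68 higher of 191 tested, and genes raised by freezing only 39 lower and 42 higher of 157.

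CopciAB_428241.T0 fell from 67.4, 87.4 and 82.1 CPM at 0 h to 3.899, 4.85 and 3.66 CPM at 18 h (log2 change -3.99 ± 0.29 (SE), adjusted p = 3.27e-08). CopciAB_404404.T0 rose from 6.57, 3.904 and 4.88 CPM to 133, 166 and 143 CPM (log2 change 5.09 ± 0.32 (SE), adjusted p = 1.48e-08). Neither gene had overlapping groups, as the naming asked. Of the first 10 genes, CopciAB_53386.T0 fell most with 56.7, 65.3 and 65.04 CPM at 0 h and 1.12, 1.55 and 2.77 CPM at 18 h (log2 change -4.81 ± 0.35 (SE), adjusted p = 3.29e-08). The 16 genes that did not pass the filter in oidia had a median level of 0.745 CPM at 0 h and 92.3 CPM in sorbitol, values that the filter and the choice of genes largely set.

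The change in oidia and the change in sclerotia involve no common library and could be set side by side. Of the 94 genes lower after germination 89 were higher in sclerotia, which is 94.7% of the 94 and 54.9% of the 162 higher there. Of the 30 genes higher after germination 22 were also higher in sclerotia. Since 83.1% of all tested genes of the set were higher in sclerotia, most of either group would be found there in any case, and no difference between the groups was tested.

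Basidiospores were measured from 0 to 12 h without a comparison here, because their level at 0 h limited the choice. The 196 genes took 6.31, 6.15 and 6.65% of counts in spores of 0 h, and 6.01, 5.62 and 6.73% after 4 h. The shares were 3.42, 3.31 and 2.63% after 8 h and 2.12, 1.94 and 1.02% after 12 h. The first and last times did not overlap. The median level of the set, in which each gene counts alike, took another course: it was 0.83 at 0 h and 1.35 at 4 h, then 0.95 and 0.28. Several genes followed a course of their own: CopciAB_170751.T0 was at 349, 327 and 439 CPM at 0 h, at 9943, 9469 and 18438 CPM at 4 h and at 1698, 1394 and 633 CPM at 12 h. CopciAB_438392.T0 was high at 0 h, with 423, 426 and 348 CPM, and stood at 27.8, 35.4 and 80 CPM at 4 h.

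**Figure D5:**
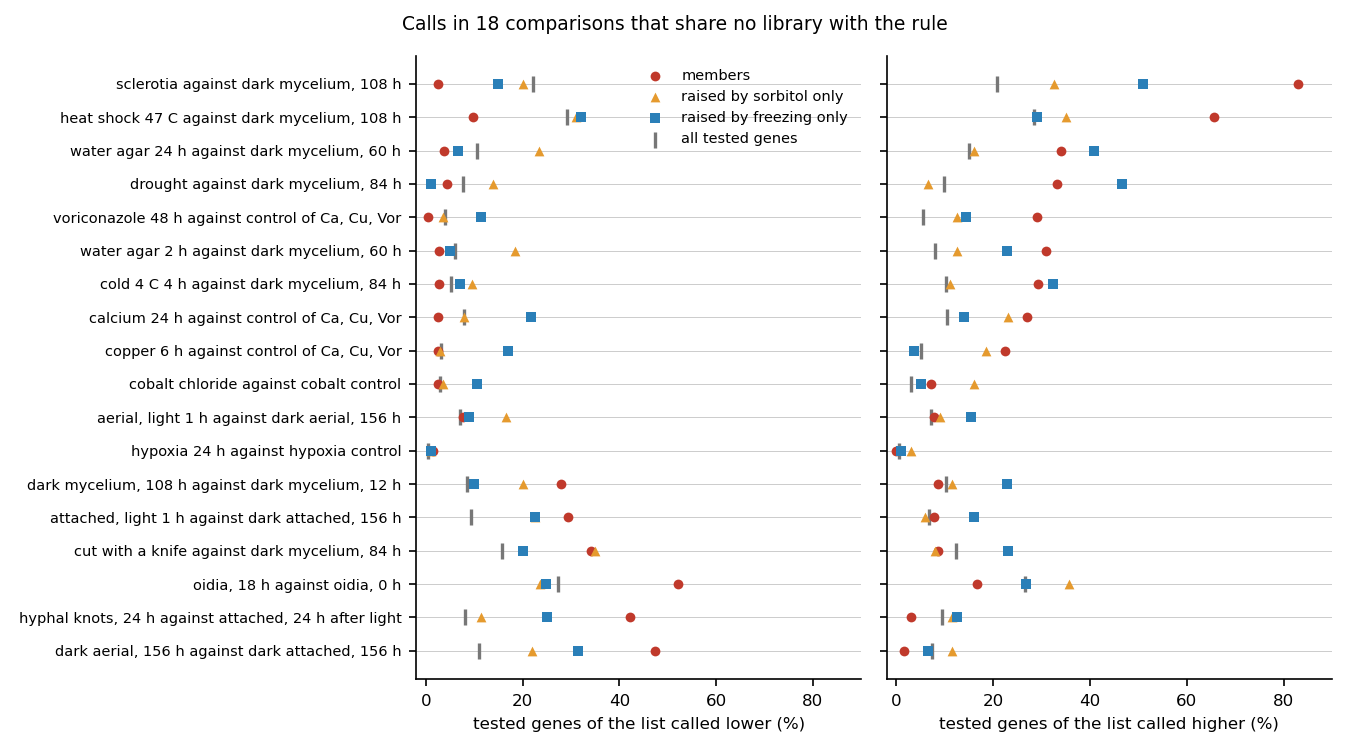
Share of tested genes called lower (left) and higher (right) in 18 comparisons that share no library with the choice of genes, for the 196 genes (red circles), the lists raised by sorbitol only (orange triangles) or freezing only (blue squares) and all tested genes (grey bars). The red circles lie right of the grey bars for sclerotia, heat, drought, cold, water agar, calcium, copper and voriconazole among higher calls, and for dark aerial mycelium, hyphal knots, oidia at 18 h, cutting, light on attached mycelium and dark mycelium of 108 h among lower calls. For cobalt the red circle lies right of the grey bar by a smaller distance among higher calls.

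Drought, which also withdraws water, raised more of the set than it lowered. Of 184 genes tested 61 were higher in drought than in dark mycelium of 84 h and 8 lower (9.82% and 7.71% of all tested genes), and the median log2 change was 0.62 against 0.02. Genes raised by freezing only gave 91 higher and 2 lower of 195 tested, and genes raised by sorbitol only 13 higher and 28 lower of 200. CopciAB_170751.T0 had 240.4, 215 and 192 CPM in drought against 46.7, 32.7 and 34.4 CPM (log2 change 2.61 ± 0.25 (SE), adjusted p = 2.21e-06). CopciAB_372931.T0 fell to 2.83, 4.53 and 3.39 CPM from 13.3, 23.8 and 8.34 CPM (log2 change -1.96 ± 0.34 (SE), adjusted p = 0.000312). The 3 drought libraries lay on 1 side of the 3 controls for both genes, as the naming asked. The level of the set in drought (-0.39) stayed below its mean over all groups, since dark mycelium of 84 h itself lay at -0.75.

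Cold was set against the same control as drought. Of 184 genes 54 were higher after 4 h at 4 °C and 5 lower (10.4% and 5.27% of all tested genes), with a median log2 change of 0.61 against 0.01. Genes raised by freezing only gave 63 higher and 14 lower of 195, and genes raised by sorbitol only 22 and 19 of 200. CopciAB_544764.T0 was at 973, 1403 and 1905 CPM in the cold and 42.6, 60.9 and 45.3 CPM in the control (log2 change 4.93 ± 0.27 (SE), adjusted p = 5.28e-09). CopciAB_354495.T0 had 518, 1779 and 1542 CPM in the cold against 24.2, 22.4 and 23.3 CPM (log2 change 5.88 ± 0.43 (SE), adjusted p = 1.32e-06). The first cold library, which had the fewest counts, gave the lowest value of both genes and still lay above every control library. CopciAB_437506.T0 fell to 38.8, 22.2 and 14.7 CPM from 67.7, 49.97 and 59.1 CPM (log2 change -1.245 ± 0.26 (SE), adjusted p = 0.00198), but its change was -0.97, under the fold of 2, without the third cold library.

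Cutting the mycelium lowered more of the set than it raised. Against the same control as drought and cold, 63 of 184 genes were lower 3 h after cutting and 16 higher (15.7% and 12.2% of all tested genes), and the median log2 change was -0.61 against 0.01. Genes raised by sorbitol only gave 70 lower and 16 higher of 200, and genes raised by freezing only 39 and 45 of 195. CopciAB_499517.T0 had 2.15, 1.71 and 2.16 CPM after cutting and 63.7, 87.4 and 35 CPM in the control (log2 change -5.10 ± 0.39 (SE), adjusted p = 3.61e-07). CopciAB_27198.T0 had 3.39, 2.92 and 2.16 CPM against 91.3, 74.9 and 99.1 CPM (log2 change -5.16 ± 0.40 (SE), adjusted p = 5e-07). Both fell far below all control libraries. CopciAB_357988.T0 was higher, with 54.7, 60.9 and 61.9 CPM against 14.6, 14.5 and 13.03 CPM (log2 change 1.89 ± 0.20 (SE), adjusted p = 2.59e-06).

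Calcium, copper and voriconazole, measured against 1 shared control, each raised more of the set than they lowered. For calcium 53 of 196 genes tested were higher and 5 lower (10.5% and 7.85% of all tested genes), and the median log2 change was 0.69 against 0.02. For copper 44 were higher and 5 lower (5.04% and 3.22%), with a median of 0.52 against -0.02. Voriconazole, which blocks ergosterol synthesis, gave 57 higher and 1 lower (5.56% and 3.96%), with a median of 0.61 against -0.03. Without the first voriconazole library 33 genes were higher and without the third library 36. Genes raised by sorbitol only gave 46, 37 and 25 higher in calcium, copper and voriconazole of 200, and genes raised by freezing only 27, 7 and 28 of 194.

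CopciAB_449390.T0 was at 452, 486 and 389.8 CPM in calcium and 7.18, 18.1 and 14.9 CPM in the control (log2 change 5.19 ± 0.36 (SE), adjusted p = 4.21e-07). CopciAB_1002234.T0 was lower in calcium, with 317, 282 and 305 CPM against 558, 810.0 and 963 CPM (log2 change -1.249 ± 0.28 (SE), adjusted p = 0.00496). CopciAB_448242.T0 had 337, 327 and 469 CPM in voriconazole against 4.21, 3.57 and 10.4 CPM (log2 change 6.12 ± 0.51 (SE), adjusted p = 6.84e-06). In each case the treated libraries lay closer to each other than to any control. CopciAB_444850.T0 was at 803, 105 and 101 CPM in copper and 2.97, 2.87 and 0.933 CPM in the control (log2 change 7.26 ± 0.92 (SE), adjusted p = 0.00033). The first copper library stood several times above the other copper libraries, and DESeq2 gave no adjusted p for that gene. The single gene lower in voriconazole, CopciAB_440153.T0 (log2 change -1.49 ± 0.45 (SE), adjusted p = 0.0486), lost its call when any of 5 of the 6 libraries was left out in turn.

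Cobalt chloride and hypoxia called few of the set and few of all tested genes. With cobalt 14 of 194 genes were higher and 5 lower (7.22% and 2.58%, against 2.93% and 2.99% of all tested genes). The median log2 change was 0.09 against -0.01, and 7 genes were higher without the third cobalt library. The list raised by sorbitol only gave 32 higher and 7 lower of 200, and that raised by freezing only 10 and 21 of 198. CopciAB_370027.T0 had 30.1, 28.4 and 50.1 CPM with cobalt and 13.5, 11.04 and 16.9 CPM without (log2 change 1.502 ± 0.24 (SE), adjusted p = 0.0039). CopciAB_487583.T0 had 0.434, 1.45 and 1.46 CPM against 6.27, 4.51 and 10.7 CPM (log2 change -2.54 ± 0.43 (SE), adjusted p = 0.00572). Hypoxia for 24 h gave 0 of 196 genes higher and 3 lower by edgeR (0.585% and 0.536% of all tested genes), with a median log2 change of -0.40 where that of all tested genes was near 0. At an unadjusted p under 0.05 there were 8 genes higher and 53 lower, and DESeq2 called 2 higher and 20 lower. The list raised by sorbitol only gave 6 higher and 2 lower of 196, and that raised by freezing only 2 and 2 of 198.

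The 3 genes lower in hypoxia were CopciAB_535237.T0, CopciAB_53386.T0 and CopciAB_450144.T0. CopciAB_53386.T0 was at 18.4, 11.1 and 9.36 CPM in hypoxia and 33.7, 105 and 68.5 CPM in its control (log2 change -2.25 ± 0.40 (SE), adjusted p = 0.0361). CopciAB_535237.T0 was at 0.559, 0.612 and 0.918 CPM against 4.105, 6.77 and 4.49 CPM (log2 change -2.67 ± 0.51 (SE), adjusted p = 0.0327). The groups were apart for both, but the count depended on single libraries: it was 0 without the third hypoxia library or without the second or the third control library, 1 without the first hypoxia library and 8 without the first control library. Both the cobalt control (1.08) and the hypoxia control (1.34) stood well above dark mycelium of any age in the level of the set, and the shares of counts were 4.02, 4.75 and 3.15% in the hypoxia control and 2.14, 2.49 and 2.98% in the cobalt control.

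Transfer to water agar, which removes the nutrients, raised more of the set than it lowered, from a low level in dark mycelium of 60 h. After 2 h 58 of 188 genes tested were higher and 5 lower (8.06% and 6.02% of all tested genes), with a median log2 change of 1.00 against -0.02, and 30 were higher without the first library of 2 h. After 24 h 64 were higher and 7 lower (14.9% and 10.7%), with a median of 1.05 where that of all tested genes was near 0. Genes raised by freezing only gave 45 and 80 higher at 2 and 24 h of 196, and genes raised by sorbitol only 25 and 32 of 200. The level of the set went from -1.195 in dark mycelium of 60 h to -0.28 after 2 h on water agar, and stood at -0.59, -0.52, -0.53 and -0.35 after 4, 8, 16 and 24 h.

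CopciAB_116432.T0 was at 186, 169.6 and 144 CPM after 2 h and 40.7, 41.2 and 47.2 CPM before (log2 change 1.93 ± 0.15 (SE), adjusted p = 3.19e-08). CopciAB_1000880.T0 was at 49.2, 34.7 and 42.5 CPM after 24 h and 0.174, 0 and 0.2699 CPM before (log2 change 8.08 ± 0.56 (SE), adjusted p = 1.26e-09). The second of these was at most at a few counts in each dark library. CopciAB_377714.T0 fell, with 5.097, 11.6 and 4.93 CPM after 24 h against 76.97, 59.01 and 51.9 CPM (log2 change -3.01 ± 0.32 (SE), adjusted p = 2.55e-07), and CopciAB_444384.T0 was lower at 2 h (log2 change -1.18 ± 0.23 (SE), adjusted p = 0.000539), though without the first dark library its change was just under the fold of 2.

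In dark mycelium more genes of the set were lower at 108 h than at 12 h than were higher, while their share of counts was not lower at 108 h. Of 186 genes tested 52 fell between 12 and 108 h and 16 rose (8.45% and 10.4% of all tested genes), with a median log2 change of -0.63 against 0.01. In the list raised by sorbitol only 40 were lower and 23 higher of 200, and in that raised by freezing only 19 and 44 of 192. The level began at -0.21 in mycelium of 12 h, was -0.91, -1.195 and -0.75 after 36, 60 and 84 h, and -0.86 and -0.52 after 108 and 132 h. The mean share of counts took another course, with 0.614, 0.389 and 0.411% after 12, 36 and 60 h. It was 0.739, 0.850 and 1.06% after 84, 108 and 132 h. CopciAB_444850.T0 fell from 9.61, 11.2 and 7.16 CPM at 12 h to 0.815, 0.541 and 0.472 CPM at 108 h (log2 change -3.63 ± 0.34 (SE), adjusted p = 1.15e-07). CopciAB_354495.T0 was higher at 108 h, with 35.2, 37.9 and 45.5 CPM against 10.5, 8.81 and 7.43 CPM (log2 change 2.46 ± 0.19 (SE), adjusted p = 1.48e-08). Neither gene had overlapping groups, as the naming asked. At 132 h the 3 libraries gave levels of -0.48, -1.07 and 0.00, a wide spread. This group is the control of the freezing contrast.

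Aerial mycelium held much less of the set than attached mycelium. In the dark at 156 h 92 of 194 genes were lower in aerial than in attached mycelium and 3 were higher (10.9% and 7.4% of all tested genes), with a median log2 change of -1.26 against -0.03. Genes raised by sorbitol only gave 44 lower and 23 higher, and genes raised by freezing only 63 and 13, of 200 each. The shares of counts were 0.333, 0.318 and 0.297% in aerial and 1.37, 1.31 and 2.11% in attached mycelium.

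CopciAB_377714.T0 had 0.287, 0.643 and 1.22 CPM in aerial and 73.7, 69.9 and 46.8 CPM in attached mycelium (log2 change -6.55 ± 0.39 (SE), adjusted p = 2.21e-09). CopciAB_541226.T0 had 0.192, 0.321 and 0.0811 CPM against 49.4, 30.1 and 23.7 CPM (log2 change -7.48 ± 0.74 (SE), adjusted p = 1.6e-06). CopciAB_472704.T0 was reversed, with 34.8, 34.3 and 25.3 CPM in aerial and 6.14, 4 and 8.004 CPM in attached mycelium (log2 change 2.23 ± 0.34 (SE), adjusted p = 7.63e-05). All 3 genes had separate groups, which the naming asked of CopciAB_377714.T0 and CopciAB_472704.T0. The others higher in aerial mycelium were CopciAB_410143.T0 and CopciAB_378364.T0, named after their values were seen.

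In attached mycelium more of the set fell than rose within 1 h of light. There 57 of 194 genes fell against dark mycelium and 15 rose (9.34% and 6.79% of all tested genes), with a median log2 change of -0.51 against 0.01. Of the genes raised by sorbitol only 45 were lower and 12 higher, and of those raised by freezing only 45 and 32, of 200 each. In aerial mycelium 15 were lower and 15 higher (7.06% and 7.06%), shares near those of all genes, and 9 were higher without the first dark aerial library. The lists raised by sorbitol only and by freezing only had 33 and 18 genes lower and 18 and 31 higher there. CopciAB_450739.T0 went from 6326, 6041 and 10279 CPM to 223, 113 and 257 CPM in attached mycelium (log2 change -5.32 ± 0.40 (SE), adjusted p = 6.84e-08). CopciAB_167773.T0 rose from 25.7, 45.5 and 45.6 CPM to 189, 319.9 and 157 CPM (log2 change 2.40 ± 0.34 (SE), adjusted p = 7.84e-05). In aerial mycelium CopciAB_470973.T0 rose from 0.192, 0.321 and 0.756 CPM to 2.83, 3.94 and 3.55 CPM (log2 change 2.90 ± 0.42 (SE), adjusted p = 0.000135). CopciAB_537454.T0 fell there from 20.99, 20.2 and 22.6 CPM to 5.45, 8.73 and 6.97 CPM (log2 change -1.69 ± 0.24 (SE), adjusted p = 0.000128). Light and dark libraries did not overlap for these 4 genes, as the naming asked.

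A day after light the set was high in attached mycelium and lower in hyphal knots sampled at the same time. Of 194 genes 82 were lower in knots and 6 higher (8.1% and 9.45% of all tested genes), with a median log2 change of -1.15 against 0.07. Genes raised by sorbitol only gave 23 lower and 23 higher, and genes raised by freezing only 50 and 25, of 200 each. The shares of counts were 0.976, 1.09 and 1.13% in knots and 3.17, 3.23 and 3.91% in attached mycelium. The level of attached mycelium was -0.16 in the dark, -1.01 at the end of 2 h of light, -0.28 in the dark 18 h later and 0.82 after 24 h, while aerial mycelium stood at -0.79 at 24 h.

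CopciAB_1000880.T0 had 1.04, 0.248 and 0.491 CPM in knots and 50.5, 32.3 and 45.3 CPM in attached mycelium (log2 change -6.29 ± 0.47 (SE), adjusted p = 8.87e-08). CopciAB_475934.T0 had 9.58, 11.1 and 15.7 CPM against 830.0, 601 and 345 CPM (log2 change -5.77 ± 0.49 (SE), adjusted p = 5.8e-07). Knots lay far below for both. CopciAB_170751.T0 was higher in knots, with 567, 121 and 444 CPM against 40.1, 41.7 and 51.4 CPM (log2 change 2.96 ± 0.38 (SE), adjusted p = 1.83e-05), and the second knot library held the lowest of its 3 knot values.

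Calls were spread over many of the 18 comparisons. Of the 165 genes of the set tested in all of them, 164 were higher in at least 1 (99.4%, against 76.7% of all 9187 genes so tested) and 146 lower in at least 1 (88.5%, against 71.6%). In 5 or more comparisons 68 of the 165 were higher (41.2%, against 8.44%) and 38 lower (23.0%, against 8.90%). These comparisons share some controls with each other, and the shares are given without a test. CopciAB_167773.T0, CopciAB_449390.T0 and CopciAB_360324.T0 were higher in 9 comparisons each. For CopciAB_360324.T0 the values were 37.3, 31.8 and 26.4 CPM on water agar at 24 h against 7.73, 5.299 and 6.57 CPM (log2 change 2.36 ± 0.21 (SE), adjusted p = 1.09e-08), and it was one of the few genes higher after cutting (log2 change 1.42 ± 0.27 (SE), adjusted p = 0.000343). CopciAB_372931.T0, CopciAB_437532.T0 and CopciAB_499517.T0 were lower in 7 comparisons each. CopciAB_372931.T0 was at 255, 174 and 289.8 CPM in sorbitol but at 0.287, 1.39 and 1.83 CPM in dark aerial mycelium, where attached mycelium held 45.8, 35.1 and 52.9 CPM (log2 change -5.34 ± 0.68 (SE), adjusted p = 2.44e-05). CopciAB_500636.T0, one of the more abundant genes in sorbitol with 3958, 3069.8 and 5105 CPM, was lower in drought, cold and after cutting and higher in sclerotia (log2 change 4.87 ± 0.24 (SE), adjusted p = 8.35e-11).

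The remaining treatments had the same controls as the choice of genes, so their values are given side by side without reading a common response from them. Against the liquid control H2O2 had 75 of 196 genes higher and 5 lower (15.5% and 8.95% of all tested genes), congo red had 92 higher (5.26%, with 3.06% of all tested genes lower), acidic medium 12 higher (1.89%, with 1.65% lower) and alkaline medium 3 higher and 1 lower (0.838% and 1.07%). Against dark mycelium of 132 h sealed plates had 75 higher (6.46%, with 4.86% lower), heat shock 97 higher and 20 lower (27.5% and 28.4%) and sclerotia 151 higher and 4 lower (19.3% and 21.5%). CopciAB_395952.T0 had 30, 20.1 and 47.5 CPM in congo red, 6.61, 6.65 and 8.34 CPM in H2O2 and 2.91, 3.34 and 0.886 CPM in acidic medium, against 0.402, 0.551 and 1.86 CPM in the liquid control and 151, 159 and 209 CPM in sorbitol. CopciAB_541226.T0 had 237, 61.5 and 74.7 CPM in sealed plates and 7.01, 7.87 and 6.02 CPM after heat shock, against 17.2, 8.31 and 30.9 CPM in dark mycelium of 132 h.

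The gene models of the set, taken from the deposited CopciAB V2 annotation and not used in the choice, were nearly always spliced. A single exon was annotated for 1 of 196 genes (0.510%), against 7.95% of all counted genes, 3.50% of genes raised by sorbitol only and 7.00% of those raised by freezing only. The median coding length was 868.5 bases against 1113 for all genes, 1227 for sorbitol only and 1020 for freezing only, and the median number of exons was 5 both in the set and over all genes. Every gene of the set had an annotated 3′ untranslated region, which 10.9% of all genes lacked. The choice asked for a minimum level in a 3′ assay, so the annotated 3′ ends are not independent of it. A gene on the other strand overlapped 66 of the 196 genes (33.7%, against 25.6% of all), among them CopciAB_455254.T0, CopciAB_53386.T0, CopciAB_1001710.T0 and CopciAB_502944.T0. The strand setting of the counting is not given in the sources used here, so reads of such pairs cannot be told apart.

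Coding lengths in the set were spread widely. CopciAB_415568.T0 has a coding length of 213 bases in 2 exons and CopciAB_1001712.T0 one of 231 bases in 3 exons, while CopciAB_438054.T0 has 4242 bases in 32 exons and CopciAB_444384.T0 4365 bases in 7 exons. CopciAB_495209.T0, with 21 exons, was at 141, 124 and 152 CPM in sorbitol and 31.4, 20.3 and 51.4 CPM in the liquid control. Of all counts of CopciAB_1001712.T0 above 0, 94.9% were not whole numbers, as happens when a read is divided between places, so its level is uncertain.

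Some genes of the set were direct neighbours on the genome. An adjacent counted gene was also in the set for 29 of 196 (14.8%), and the like count was 6 of 200 (3.00%) in each of the lists raised by 1 treatment, without a test. The 29 genes formed 14 runs, of which 13 were pairs and 1 had 3 genes. Of the 15 neighbouring pairs 7 were head to head, 6 on the same strand and 2 tail to tail. The highest share of counted genes was on scaffold 7, with 22 of 1035 (2.13%), and scaffold 10, with 17 of 804 (2.11%), and the lowest of the large scaffolds was on scaffold 13, with 2 of 351 (0.570%).

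The run of 3 lay on scaffold 1 between 3984469 and 3989021. Its outer gene CopciAB_472704.T0 is on the minus strand, and CopciAB_450143.T0 and CopciAB_450144.T0 follow on the plus strand with 201 bases between them. CopciAB_450143.T0 was at 272, 152 and 212 CPM in sorbitol and 25.8, 32.5 and 34.5 CPM in the liquid control, and CopciAB_450144.T0 at 665, 607 and 777 CPM and 32.99, 39.9 and 60.5 CPM. After heat shock they stood at 154, 226 and 215 CPM and 42.9, 70.5 and 66.4 CPM, against under 1 CPM in each library of dark mycelium of 108 h (log2 change 8.87 ± 0.31 (SE), adjusted p = 1.54e-12, and log2 change 7.70 ± 0.33 (SE), adjusted p = 1.08e-11). CopciAB_472704.T0 moved less, with 24.5, 25.3 and 32.2 CPM against 6.82, 5.59 and 6.84 CPM (log2 change 2.49 ± 0.24 (SE), adjusted p = 1.39e-07), and its highest level was in oidia at 0 h with 100.0, 132 and 106 CPM.

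Pairs were ranked by the product of ratios of their lower gene. The first, CopciAB_451069.T0 and CopciAB_543155.T0 on scaffold 3 (1962138 to 1967405), is head to head with 310 bases between the transcripts. In sorbitol they had 158, 122 and 234 CPM and 29.5, 35.9 and 51.8 CPM, and after freezing 86.8, 146 and 104 CPM and 63.2, 100.3 and 101 CPM. Both were higher in copper, voriconazole, heat and sclerotia and lower in germinated oidia and knots, while in drought CopciAB_451069.T0 was lower (log2 change -1.21 ± 0.32 (SE), adjusted p = 0.00727) and CopciAB_543155.T0 higher (log2 change 1.92 ± 0.52 (SE), adjusted p = 0.00879). The second of these changes rests on levels near 1 CPM, with 1.08, 2.21 and 1.11 CPM against 0.354, 0.367 and 0.521 CPM. CopciAB_373120.T0 and CopciAB_438898.T0 on scaffold 9 (1111776 to 1115033) share a strand, as do CopciAB_468107.T0 and CopciAB_1002234.T0 on scaffold 10 (1964486 to 1966615). Both genes of the last pair were lower in sclerotia (log2 change -4.30 ± 0.41 (SE), adjusted p = 1.69e-07, and log2 change -1.57 ± 0.24 (SE), adjusted p = 2.86e-05), which makes them 2 of the 5 genes of the set that were. Genes so close on 1 strand can share reads where a transcript runs past its annotated end.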

How the data were processed

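QuantSeq 3′ libraries of 67 groups with 3 replicates each were analysed. Expected counts for every gene, deposited in a single table, were the starting point: 19.9% of its values above 0 were not whole. An annotation of gene models (scaffold, start, end and strand) was deposited beside it. STAR 2.6.1a and featureCounts are named in the submitters' processing notes. Counts were rounded to whole numbers for the tests, and CPM was computed from the counts as deposited.

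Comparisons were fitted with edgeR 4.0.16 (quasi-likelihood, TMM scaling, filterByExpr with a minimum count of 10) in R 4.3.3. Several of them shared a fit, for example drought, cold and cutting, or calcium, copper and voriconazole. Filter, scaling and estimated spread of such a comparison thus also drew on libraries outside the groups it compares. P-values were adjusted by Benjamini-Hochberg over all tested genes, and calls asked for a fold of at least 2 with an adjusted p below 0.05. Only the fit of drought, cold and cutting was tried on simulated counts, and the other fits were not. Known changes were set in drought alone, with the same spread for every gene. DESeq2 1.42.0, RLE scaling, no filter, a replicate block and leaving out single libraries were alternatives. Same-numbered replicates did not deviate together in any comparison in the sense of all 3 correlations over 0.1, so the numbers were not taken as pairs. Dark aerial against attached mycelium came near this, with correlations of 0.077, 0.181 and 0.218.

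The genes, the comparison lists and the tests were chosen with earlier results of these data known. Genes were named by rule for the largest products of ratios, the highest means, the most comparisons called and the most uneven ratios. Runs and pairs of neighbours and extremes of size were named as well. In each direction of each comparison, the gene with the smallest adjusted p and all libraries in that direction was named too. Others are said to be named after their values were seen or stand in groups of 5 or fewer. The reference gene table matched 0 of 13617 IDs, so no gene names or sequences were used here.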

Additional observations from a re-analysis of the deposited data

Results flagged for a closer look

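The response to 1 h of light was compared between aerial and attached mycelium as an interaction contrast in edgeR's quasi-likelihood test. The fit also held the libraries of hyphal knots and attached mycelium 24 h after light. This test was added after the data were seen. Of 194 genes of the set tested, 20 had a response higher in aerial than in attached mycelium and 1 a lower one (10.3% and 0.515%), where 246 and 66 of 11335 tested genes did (2.17% and 0.582%). The smallest adjusted p, 0.000187, was that of CopciAB_448242.T0, with a difference of 6.67 ± 0.77 (log2, SE). It had 3.93, 5.06 and 16.9 CPM in dark and 19.1, 17.3 and 37.8 CPM in lit aerial mycelium, and 233, 197 and 197 CPM in dark and 6.61, 5.01 and 5.79 CPM in lit attached mycelium. Among other genes described above, CopciAB_541226.T0 was at 6.09, CopciAB_425585.T0 at 4.44, CopciAB_470973.T0 at 3.90, CopciAB_437532.T0 at 3.79, CopciAB_450739.T0 at 3.72, CopciAB_27198.T0 at 3.58 and CopciAB_475934.T0 at 3.56. The differences of CopciAB_499517.T0 (2.85), CopciAB_500636.T0 (2.55), CopciAB_487583.T0 (2.34) and CopciAB_415568.T0 (2.18) were smaller. In the dark CopciAB_448242.T0 stood far lower in aerial than in attached mycelium, and the part of that starting level in the difference was not tested.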

How the results depend on the processing

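Across RLE scaling, no filter, the replicate block, DESeq2 and other settings of the choice, 73 of 77 values stayed within 1.5 times the one reported. The exceptions were the genes lower in hypoxia, of which there were 6 with no filter, 0 with the replicate block and 20 with DESeq2, and the choice of genes with a fold of 3 in both treatments, which left 110; the cause was not tested for hypoxia. The block changed no other count of calls by over 1.5 times. A pseudocount of 0.1 or 2 CPM gave 202 and 174 genes, and TMM-scaled libraries 201, with 186 of the 196 among them. Leaving out single libraries kept 110 of 120 counts within 1.5 times. The ranges were 7 to 14 higher for cobalt, 0 to 8 lower for hypoxia, 33 to 60 higher for voriconazole, 30 to 65 higher for water agar at 2 h, 9 to 15 higher for light on aerial mycelium, and 177 to 262 for the number of genes chosen. For sclerotia it was 158 to 164 higher, for heat shock 121 to 130 higher and for oidia 74 to 110 lower. Among genes named in a comparison 335 of 350 values kept direction and call, and 15 lost the call. The 3 libraries a group limit precision, and values near 1 CPM rest on a few counts in the shallower libraries.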

Other observations

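Control groups of the study differed widely in their level of the set. The hypoxia control (1.13, 1.69 and 1.198 in its 3 libraries) and the cobalt control (0.88, 1.15 and 1.196) lay above dark mycelium of 84 h (-0.76, -0.44 and -1.06) and 60 h (-1.16, -1.29 and -1.13), and the liquid control gave 0.05, -0.01 and 0.44. Mycelium overgrown by Trichoderma for 60 h gave 0.58, -1.19 and -0.87, with totals of 213736, 533936 and 961041 counts, and was used in no comparison. Its first library, the shallowest of the study, gave the highest of these levels.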
